A study of Homo sapiens with 32 samples.

Results

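Collagens are secreted or membrane-bound proteins whose chains wind into triple helices, and each chain is made from its own gene. Genes were taken as collagen chain genes where the array annotation gave a symbol of the form COL, a number, A and a number. This gave 43 genes, read by 112 probe sets, of 19775 genes with a symbol of their own. Each gene was followed through its brightest probe set, on the log2 scale of the deposited intensity. Of the 43 genes, 30 were over log2 5 in 3 or more of the 32 arrays and were tested, and 13 were not.

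The samples were stable lines of 2 human lung cancer cell lines, H1299 and A549, both known to lack SMARCA4 protein. SMARCA2 and SMARCA4 are the alternative ATPases of SWI/SNF, a complex that moves nucleosomes. The tested hairpin was S2sh7, which is directed at the ATPase part of SMARCA2, and the control hairpin was shLuc, directed at luciferase. The H1299 lines also carried wild-type SMARCA2 (WT), SMARCA2 with a bromodomain mutation (BRD), SMARCA2 with a dead ATPase (ATPdead) or GFP, each with S2sh7 and with shLuc, as 8 groups of 3 arrays. The A549 lines carried WT, BRD or ATPdead SMARCA4 or GFP, each with S2sh7 and with shLuc, as 8 groups of 1 array. S2sh7 is the only hairpin to SMARCA2 in these samples, and cells were otherwise untreated. The labels do not say whether a line is a clone or a pool. The H1299 replicates are labelled as biological, with no word on separate cultures, so p-values here reflect the scatter among these arrays, which may be technical.

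Fibrillar collagens form the banded fibres of connective tissue. Type IV collagens form the sheet-like network of the basement membrane on which epithelial cells sit, and type VII collagen anchors that sheet to the tissue below. Fibril-associated collagens decorate fibres, beaded-filament (type VI) collagens link cells to their matrix, and transmembrane collagens such as type XIII sit in the plasma membrane. In tumours of epithelial origin, most fibrillar collagen is thought to come from fibroblasts, while the carcinoma cells themselves make basement membrane chains.

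The promoters of the genes that the results turn on were read from RefSeq, build GRCh38.p14, from 250 bases before to 50 bases after the annotated start. They are shown because the genes moved with the hairpin in at least 1 line. COL4A1 and COL4A2 also share a stretch of DNA here, and its part in their moves was not tested. COL13A1 lies at chr10:69801656-69801955 on the plus strand. COL18A1 has an upstream start at chr21:45404915-45405214 and a downstream start at chr21:45455272-45455571, both on the plus strand. COL27A1 lies at chr9:114155287-114155586 on the plus strand. COL4A1 lies at chr13:110307108-110307407 on the minus strand, and COL4A2 at chr13:110307034-110307333 on the plus strand. Capitals mark the letters GGGCGG of the GC box, the letters CCAAT of the box of that name, the letters TATAAA of the TATA box and the letters TGANTCA that AP-1 is known to bind, each searched on both strands; where GC boxes overlap, their capitals run together.
COL13A1: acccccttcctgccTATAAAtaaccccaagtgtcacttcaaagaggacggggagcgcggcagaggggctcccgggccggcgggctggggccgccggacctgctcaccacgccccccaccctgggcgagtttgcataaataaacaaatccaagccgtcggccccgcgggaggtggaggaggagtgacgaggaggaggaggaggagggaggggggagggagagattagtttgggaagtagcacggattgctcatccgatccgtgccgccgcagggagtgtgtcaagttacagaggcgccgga
COL18A1, upstream start: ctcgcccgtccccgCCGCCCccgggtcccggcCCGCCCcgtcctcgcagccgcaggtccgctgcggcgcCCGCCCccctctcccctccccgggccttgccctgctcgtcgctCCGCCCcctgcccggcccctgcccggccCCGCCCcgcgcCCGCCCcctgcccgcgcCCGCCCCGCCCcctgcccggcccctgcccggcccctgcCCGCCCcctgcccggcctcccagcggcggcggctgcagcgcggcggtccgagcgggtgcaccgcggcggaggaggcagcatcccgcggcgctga
COL18A1, downstream start: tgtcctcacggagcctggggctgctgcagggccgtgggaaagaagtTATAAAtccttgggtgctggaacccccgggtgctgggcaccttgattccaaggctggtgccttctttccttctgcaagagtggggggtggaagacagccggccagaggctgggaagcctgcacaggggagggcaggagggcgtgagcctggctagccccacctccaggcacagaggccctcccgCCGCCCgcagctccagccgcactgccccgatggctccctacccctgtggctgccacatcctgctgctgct
COL27A1: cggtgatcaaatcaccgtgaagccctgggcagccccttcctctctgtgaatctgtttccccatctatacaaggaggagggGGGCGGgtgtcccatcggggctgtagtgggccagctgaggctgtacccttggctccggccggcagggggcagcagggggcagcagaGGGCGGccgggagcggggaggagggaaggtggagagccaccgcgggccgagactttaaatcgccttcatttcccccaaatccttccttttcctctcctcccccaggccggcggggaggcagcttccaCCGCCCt
COL4A1: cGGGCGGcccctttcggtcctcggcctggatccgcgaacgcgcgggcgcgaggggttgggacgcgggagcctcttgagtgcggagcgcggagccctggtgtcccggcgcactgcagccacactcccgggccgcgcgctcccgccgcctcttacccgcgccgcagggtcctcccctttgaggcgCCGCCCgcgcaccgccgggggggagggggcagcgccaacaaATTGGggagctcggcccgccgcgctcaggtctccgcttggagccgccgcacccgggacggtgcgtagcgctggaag
COL4A2: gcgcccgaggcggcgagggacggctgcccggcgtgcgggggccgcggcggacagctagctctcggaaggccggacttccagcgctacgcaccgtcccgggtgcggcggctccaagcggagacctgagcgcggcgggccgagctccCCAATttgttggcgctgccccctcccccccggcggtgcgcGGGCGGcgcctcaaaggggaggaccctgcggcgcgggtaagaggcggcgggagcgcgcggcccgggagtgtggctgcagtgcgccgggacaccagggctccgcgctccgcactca

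The COL13A1 stretch held 1 TATA box and no GC box. The upstream start of COL18A1 held 9 GC boxes and its downstream start held 1 GC box and 1 TATA box. COL27A1 held 3 GC boxes. The COL4A1 and COL4A2 stretches share 226 bases read on opposite strands, and their starts lie 127 bases apart, so the CCAAT box and the GC box in that overlap are the same letters in both. Of 35116 promoters of the same length, 44.95% held a GC box, 34.61% a CCAAT box, 11.53% a TATA box and 7.709% the AP-1 letters. Of the 43 genes, 31 had a promoter in the RefSeq table. The other head-to-head type IV genes there were COL4A5 with COL4A6 on chromosome X, sharing 121 bases with starts 380 bases apart, and COL4A3 with COL4A4 on chromosome 2, sharing 82 bases with starts 419 bases apart. A match of letters describes the stretch only.

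The knockdown and the quality of the arrays were checked. SMARCA2, in its brightest probe set, fell with S2sh7 by 1.30 (SE 0.103) in H1299 with GFP and by 3.02 (SE 0.0801) in A549 over the 4 cDNAs, on the log2 scale (limma, adjusted p = 7.85e-09 and 0.00160). SMARCA4, in its brightest probe set, also fell with S2sh7, by 0.60, in H1299 with GFP (limma, adjusted p = 7.46e-07). In A549 that probe set was higher by 0.23 (limma, adjusted p = 0.0395). Correlations between replicate arrays of H1299 ran from 0.997 to 0.998 over 24 pairs, and no 2 arrays were identical. The array medians were 26.4 to 27.3 in H1299 and 40.1 to 41.2 in A549, each line is its own batch in the labels, and the line and the batch cannot be told apart, so levels set across the lines are given side by side and were not tested. ACTB probe sets differed by 0.237 between the 3' and 5' ends with S2sh7 and 0.247 with shLuc in H1299, and by 0.191 with S2sh7 and 0.209 with shLuc in A549, on the log2 scale. Log2 5 does not separate expressed from silent genes: the T-cell gene CD3E read 4.99 to 5.38 in H1299 and 5.91 to 6.24 in A549 with shLuc.

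Fewer collagen genes passed log2 5 in H1299. In 3 or more arrays of the line, 15 of the 30 (50%) were over log2 5 in H1299 and 28 (93.3%) in A549, where 85.4% of all tested genes were in H1299 and 96.8% in A549. The arrays of A549 read higher as a whole, and COL1A2, COL9A1 and COL23A1 passed there with at most log2 5.50, 5.51 and 5.86. Of 11 fibrillar genes, 9 were tested, and 4 were over log2 5 in H1299 and 9 in A549. Of 6 basement membrane genes, 5 were tested, and 1, COL4A5, was over log2 5 in H1299, against 5 in A549. Of 10 fibril-associated genes, 8 were tested, with 4 over log2 5 in H1299 and 7 in A549. Of 5 beaded-filament genes, COL6A1 and COL6A2 were over log2 5 in both lines. COL7A1, the only chain of the anchoring fibril, and COL18A1, a multiplexin whose C-terminal fragment is endostatin, were over log2 5 on every array of both lines. Of 3 transmembrane genes, COL13A1 was over log2 5 in H1299 alone and COL23A1 in A549 alone. The tested genes nearest the threshold, by the value the filter rests on (the highest level reached in 3 arrays), were COL9A3 at log2 5.23 and COL9A1 at log2 5.43, and the nearest genes that were not tested were COL6A3 at log2 4.98 and COL25A1 at log2 4.76. The 13 that were not tested were COL2A1, COL24A1, COL4A3, COL8A1, COL10A1, COL6A3, COL6A5, COL6A6, COL19A1, COL21A1, COL25A1, COL15A1 and COL28A1.

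**Figure D1:**
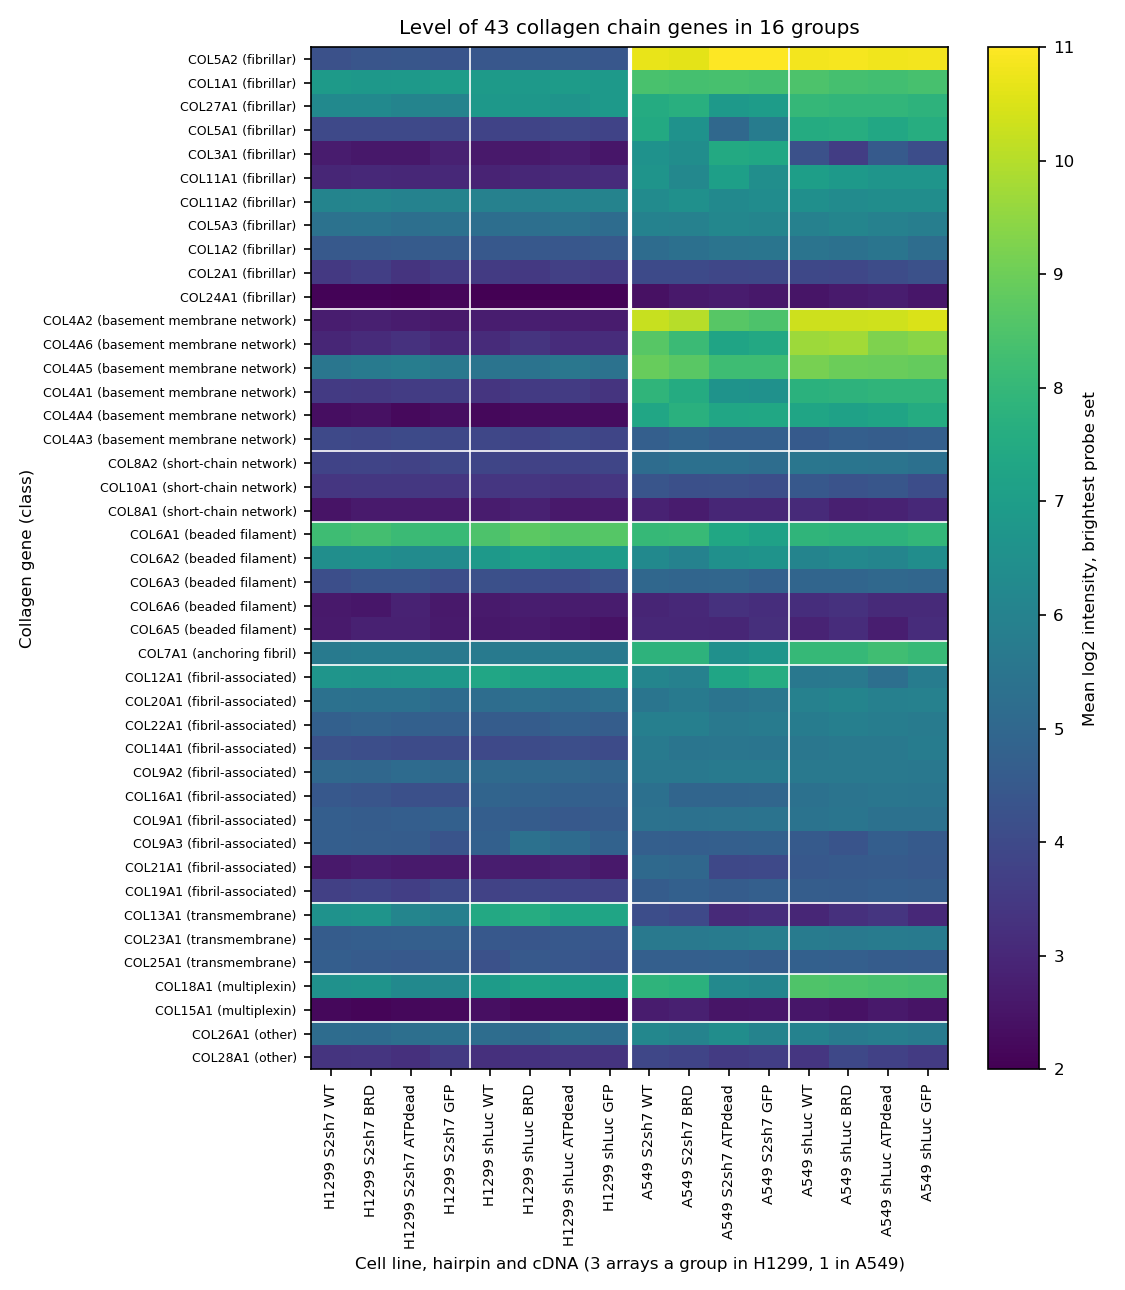
Mean log2 intensity (colour) of the brightest probe set of 43 collagen genes (vertical axis, grouped by class) in 16 groups (horizontal axis, 3 arrays a group in H1299 and 1 in A549, S2sh7 left of shLuc). Colours are to be read along a row and within a line. COL13A1 is bright in H1299 and dim in A549, COL4A2, COL4A6 and COL5A2 the other way round, and COL3A1 is over log2 5 only in the 4 A549 groups with S2sh7.

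COL13A1 encodes the chain of the transmembrane collagen XIII, which sits at cell-matrix contacts. It read log2 5.76 to 7.60 on the 24 H1299 arrays and log2 2.97 to 4.12 on the 8 A549 arrays. COL4A2 and COL4A1 make the common basement membrane heterotrimer. COL4A2 read log2 2.53 to 2.96 in H1299 and 8.47 to 10.49 in A549, and COL4A1 read 3.25 to 3.89 and 6.54 to 7.90 in the same lines. COL4A6, a chain of epithelial basement membranes, read log2 2.79 to 3.40 in H1299 and 7.27 to 9.75 in A549. COL5A2, a chain of the minor fibrillar collagen V, read log2 4.11 to 4.70 in H1299 and 10.63 to 11.30 in A549. For each of these genes the arrays of the 2 lines did not overlap. Each passed the filter only through the line where it is high, which favours such a gap. The share of all genes without overlap was not counted, so nothing is read from it.

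The choice of probe set mattered for some chains, and 31 of the 43 genes had the same brightest probe set in both lines. COL13A1 was read by 3 probe sets, and the other 2, both of a kind that can cross-hybridise (suffix x_at), averaged log2 5.89 and 5.88 in H1299 and 6.23 and 5.94 in A549, with no such gap between the lines. COL1A1, the main chain of collagen I, read log2 6.70 to 7.10 in H1299 and 8.28 to 8.49 in A549 in its brightest probe set, also an x_at. Another COL1A1 probe set averaged log2 2.43 in H1299 and 8.95 in A549. COL4A3, a kidney and lung basement membrane chain that was not tested, averaged log2 2.38 in H1299 and 5.52 in A549 in a probe set other than its brightest.

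With S2sh7 in H1299, the collagen genes that moved were lower, and they came from several classes. In cells with GFP, 8 of the 30 genes fell (26.7%), none rose, and 22 did not pass the test. Of all 14695 genes tested in that comparison, 29.7% were called (limma, adjusted p under 0.05), 16.1% lower and 13.6% higher, so the share of collagen genes called is near the background. The median log2 fold change was 0.01 over the 30 genes and 0.01 over all genes. The 8 genes were the transmembrane COL13A1, the multiplexin COL18A1, the fibrillar COL27A1, the beaded-filament COL6A1 and COL6A2, and the fibril-associated COL12A1, COL16A1 and COL9A3. Among the 15 genes over log2 5 in H1299, 7 fell and none rose, but the share of all genes under that filter was not counted. The 7 include COL9A3, which was over log2 5 in H1299 only on shLuc arrays.

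COL13A1 had the largest fall. With GFP it read log2 5.99, 5.76 and 5.95 on the S2sh7 arrays, against 7.26, 7.24 and 7.33 on the shLuc arrays. Every S2sh7 array lay more than 1 log2 unit below every shLuc array. The log2 fold change was -1.38 (SE 0.0616, adjusted p = 1.88e-12, limma), a 2.60-fold lower level. With ATPdead SMARCA2 the arrays read 6.11, 6.19 and 6.02 with S2sh7, against 7.40, 7.23 and 7.29 with shLuc. With WT SMARCA2 they read 6.65, 6.50 and 6.56 with S2sh7, against 7.37, 7.41 and 7.52 with shLuc, and with BRD SMARCA2 6.63, 6.68 and 6.70, against 7.60, 7.48 and 7.60. The S2sh7 arrays thus formed a lower pair of groups (ATPdead and GFP) and a higher pair (WT and BRD), and all 12 lay below all 12 shLuc arrays. The size of the fall rests on the brightest probe set: the other 2 COL13A1 probe sets gave -0.08 (limma, adjusted p = 0.323) and -0.28 (adjusted p = 0.0292) with GFP.

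COL18A1 and COL27A1 fell next. COL18A1 read log2 6.18, 6.25 and 6.22 with S2sh7 and GFP, against 7.10, 6.92 and 7.02 with shLuc and GFP. COL27A1, a fibrillar chain first known from cartilage, read 6.10, 5.89 and 6.10 with S2sh7, against 6.88, 6.81 and 6.90 with shLuc. In neither gene did the hairpins overlap. The log2 fold changes were -0.80 (SE 0.0540) for COL18A1 and -0.83 (SE 0.0729) for COL27A1 (limma, adjusted p = 8.78e-10 and 3.54e-08). The other COL18A1 probe set gave -0.59. Of the 4 other COL27A1 probe sets, 1 gave -0.93 and the other 3 gave -0.02, -0.05 and -0.09.

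The chains of collagen VI, a filament that joins cells to the matrix around them, fell where they were tested. COL6A1 and COL6A2 fell with GFP, and COL6A3, which was not tested, stayed under log2 5 on all H1299 arrays. COL6A1 averaged log2 8.07 ± 0.0192 with S2sh7 and 8.61 ± 0.0418 with shLuc (SD, n = 3 each), and COL6A2 averaged 6.34 ± 0.0659 and 6.92 ± 0.00984 in the same order of hairpins. No S2sh7 array of either gene reached a shLuc array. The log2 fold changes were -0.54 for COL6A1 and -0.58 for COL6A2 (limma, adjusted p = 3.56e-09 and 1.51e-05). The other 4 tested COL6A1 probe sets gave -0.29, -0.10, -0.12 and -0.05, and the mean over its probe sets gave -0.13. Among fibril-associated chains, COL12A1, which binds the surface of collagen I fibres, averaged log2 6.79 ± 0.0938 with S2sh7 and 7.15 ± 0.0776 with shLuc (SD, n = 3 each). COL16A1 and COL9A3 were dim, at log2 4.21 ± 0.109 and 4.35 ± 0.324 with S2sh7 and 4.73 ± 0.171 and 4.82 ± 0.142 with shLuc (SD, n = 3 each). COL9A3, a cartilage chain, passed the filter only through 6 H1299 arrays with shLuc, and COL16A1 only through 5 A549 arrays, so their tests in H1299 concern levels mostly under log2 5.

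**Figure D2:**
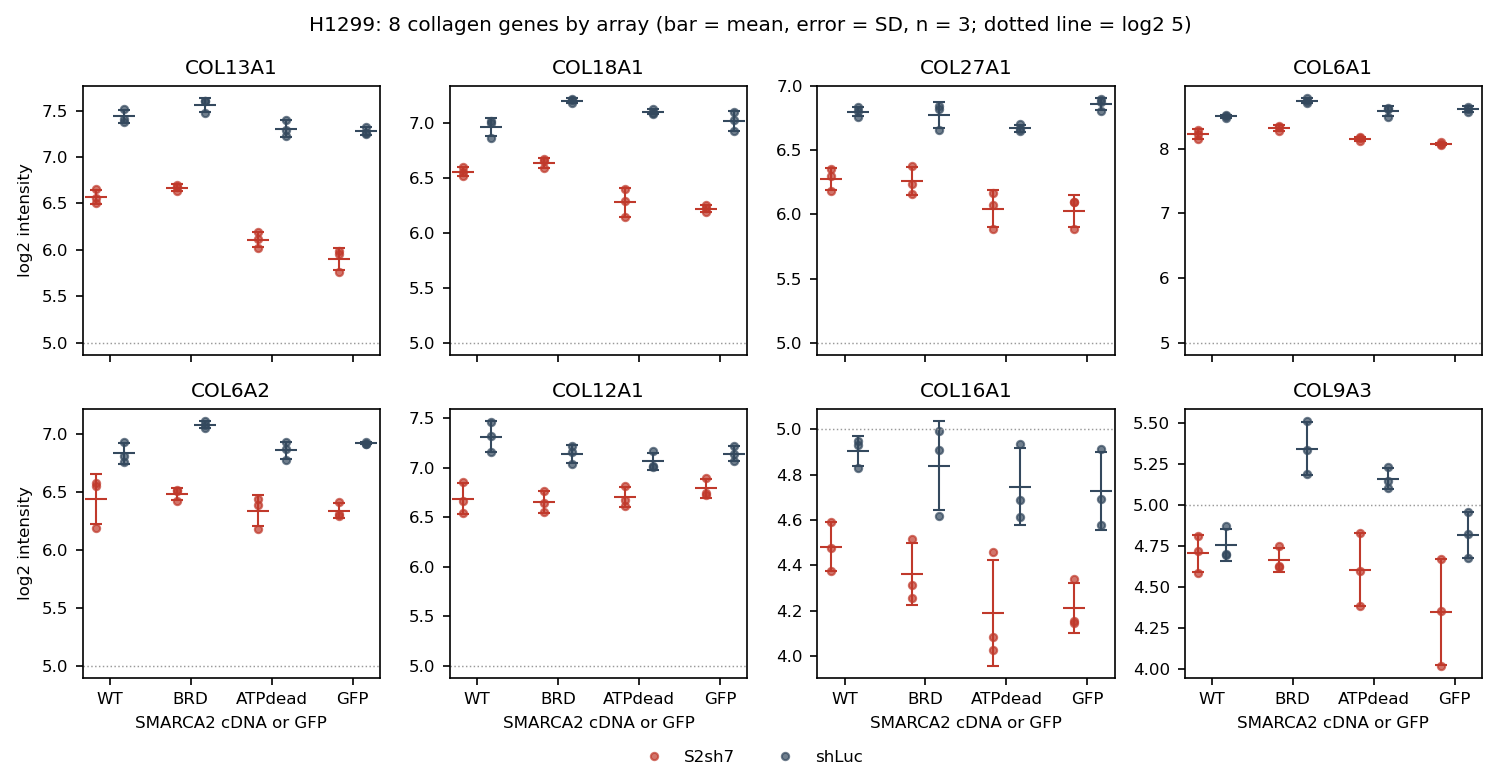
Log2 intensity (vertical axes, scaled per panel) of 8 collagen genes on each H1299 array, by cDNA (horizontal axis), with S2sh7 left of shLuc; points are arrays, bars are means with SD (n = 3) and the dotted line is log2 5. Every S2sh7 array lies below every shLuc array of the same cDNA, apart from COL9A3 with WT SMARCA2.

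The other cDNA backgrounds gave mostly the same list. With WT SMARCA2, 7 genes fell and 1 rose, where 26.5% of all genes were called, 14.9% higher and 11.6% lower. With BRD, 8 fell and 1 rose (23.7% of all genes, 11.1% higher and 12.7% lower), and with ATPdead, 8 fell and none rose (28.4% of all genes, 16.5% higher and 11.9% lower). Of the 30 genes, 7 fell in all 4 comparisons, COL9A3 fell in 3, and 21 were called in none. The 6 arrays that let COL9A3 through the filter were those of shLuc with BRD and with ATPdead. Its falls with those cDNAs were thus favoured by the filter. COL9A3 changed by -0.05 (95% interval -0.32 to 0.22) with WT SMARCA2. The gene that rose was COL5A1, by 0.16 with WT and 0.16 with BRD (limma, adjusted p = 0.0369 and 0.0323), at levels under log2 5, and the call was lost when arrays were centred on their medians or quantile normalized again. COL7A1, at log2 5.56 to 5.84 in H1299, gave 0.02 (95% interval -0.12 to 0.17) with GFP. COL1A1 gave 0.09 (-0.07 to 0.25) there in its brightest probe set, an x_at.

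The question of whether an added SMARCA2 cDNA changed the hairpin effect was asked by the difference of the S2sh7 effect with each cDNA minus that with GFP. With WT SMARCA2 the fall was smaller for 3 of the 30 genes, where 2.28% of all genes were called, 1.82% higher and 0.456% lower. The difference was 0.51 (SE 0.0872) for COL13A1, 0.39 (SE 0.0764) for COL18A1 and 0.26 (SE 0.0568) for COL6A1 (limma, adjusted p = 0.00295, 0.00900 and 0.0193). These differences rest on the brightest probe sets. The other 2 COL13A1 probe sets gave -0.14 and -0.03 (limma, adjusted p = 0.467 and 0.951), and with its probe sets averaged COL13A1 gave 0.11 and was not called. The other COL18A1 probe set gave 0.27 (adjusted p = 0.329). The COL6A1 call was lost in 6 of 21 settings, with values of 0.04 to 0.30, and 2 of its other probe sets gave -0.06 and -0.10. With BRD SMARCA2 only COL13A1 was called, at 0.49 (SE 0.0872, limma, adjusted p = 0.00870), where 0.558% of all genes were called, 0.388% higher and 0.170% lower. That call was lost with the probe sets averaged (0.13) and with only the groups compared in the fit, and the other 2 COL13A1 probe sets gave -0.09 and -0.00. With ATPdead SMARCA2 no collagen gene was called (2 at an unadjusted p under 0.05, limma), where 0.0612% of all genes were called, 0.0476% higher and 0.0136% lower. For COL13A1 the ATPdead difference was 0.18 (95% interval -0.00 to 0.36). The falls that remained with WT SMARCA2 were -0.87 for COL13A1, -0.40 for COL18A1 and -0.28 for COL6A1.

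Set directly against each other under S2sh7, ATPdead and WT SMARCA2 differed in 2 of the 30 genes, where 3.02% of all genes were called, 1.61% higher and 1.41% lower. COL13A1 was lower with ATPdead by 0.46 on the log2 scale (6.11 ± 0.0835 with ATPdead and 6.57 ± 0.0738 with WT; limma, adjusted p = 0.000170), and COL18A1 by 0.28 (6.27 ± 0.128 with ATPdead and 6.55 ± 0.0399 with WT; adjusted p = 0.00582; SD, n = 3 each). The arrays did not overlap in either gene, but neither was called with only these groups in the fit. A SMARCA2 probe set other than its brightest averaged log2 6.25 with WT, 6.07 with BRD, 5.82 with ATPdead and 4.64 with GFP under S2sh7. The part of this level in the contrast was not tested. BRD and WT SMARCA2 under S2sh7 differed in no collagen gene (1 at an unadjusted p under 0.05, limma), where 0.0612% of all genes were called. COL13A1 differed by 0.10 there (95% interval -0.03 to 0.23).

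The cDNAs gave few calls among collagen genes under the control hairpin. WT SMARCA2 against GFP and ATPdead against GFP gave no call among the 30 (2 and 2 at an unadjusted p under 0.05, limma), where 2.74% of all genes were called with WT (0.925% higher and 1.82% lower) and 0.122% with ATPdead (0.0340% higher and 0.0885% lower). BRD against GFP gave 1, COL13A1 (4 genes at an unadjusted p under 0.05, limma), where 1.37% of all genes were called, 0.864% higher and 0.504% lower. COL13A1 averaged log2 7.56 ± 0.0731 with BRD and 7.28 ± 0.0439 with GFP (SD, n = 3 each), a difference of 0.28 (limma, adjusted p = 0.0259). That call was lost in 5 of 6 fits that left out 1 array, all but the fit without the second BRD array. COL9A3 was not called, but under shLuc it averaged log2 5.35 with BRD and 5.16 with ATPdead, against 4.82 with GFP. It passed the filter only through those BRD and ATPdead arrays, which favours such a gap.

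**Figure D3:**
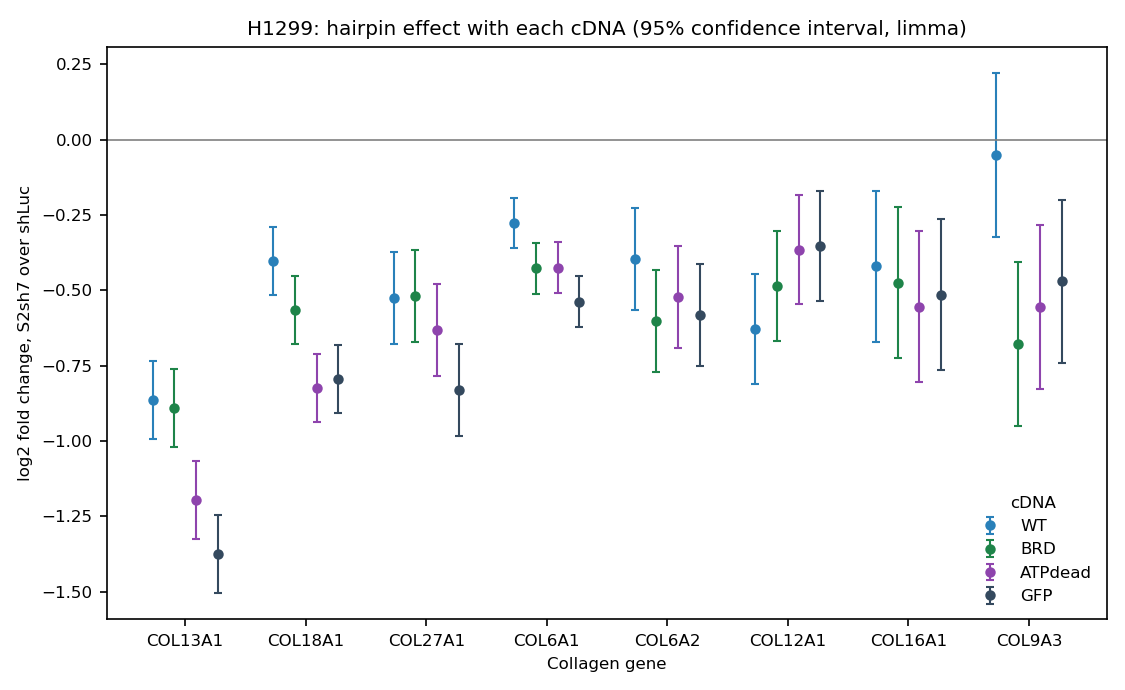
Log2 fold change of S2sh7 over shLuc in H1299 (vertical axis) for 8 collagen genes (horizontal axis) with each cDNA, as limma estimates with 95% intervals. The falls of COL13A1 were -0.87 with WT, -0.89 with BRD, -1.20 with ATPdead and -1.38 with GFP, and that of COL18A1 was -0.57 with BRD, whose difference from GFP was not called, while those of COL6A2, COL12A1 and COL16A1 have intervals that overlap across the cDNAs.

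The pattern of COL13A1 over the 8 H1299 groups was set beside every other tested gene, as a description over 8 group means that share arrays and a hairpin contrast. The genes outside the collagens with the highest Pearson correlation to it were TAGLN2 (0.998), CNOT2 (0.997), SPDL1 (0.997), MPC1 (0.997) and MAD1L1 (0.997). Among collagen genes COL18A1 (0.985), COL16A1 (0.971), COL27A1 (0.968), COL6A1 (0.962) and COL6A2 (0.955) came next, and COL23A1 ran the other way (-0.959).

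Genes of other cell types were read beside these results. Of 8 fibroblast markers 4 (ACTA2, DCN, PDGFRB and THY1) were over log2 5 in 3 or more arrays, and none of the 4 was called with S2sh7 in H1299 with GFP or in A549. The summed linear intensity of the 8 markers ran from 194 to 223 with S2sh7 and from 189 to 217 with shLuc in H1299, and LUM, POSTN and FAP stayed under log2 4 on all arrays of both lines. Markers of other absent cell types did pass the test in H1299 with GFP. The endothelial VWF rose by 0.27 and the T-cell gene CD3E by 0.18 (limma, adjusted p = 0.0149 and 0.0246), while PECAM1 and CD14 were not called. The carcinoma keratins KRT8 and KRT18 were bright in both lines, while EPCAM, CDH1 and KRT19 were under log2 4 in H1299. The summed intensity of the 6 epithelial markers was lower with S2sh7, 6412 to 7626 against 9334 to 10031 with shLuc in H1299, and KRT7 fell by 1.30, KRT8 by 0.81 and KRT18 by 0.56 with GFP (limma, adjusted p under 0.05). The part of this move in the collagen results was not tested. Each sample is a culture of a single cell line, and a bulk array does not show whether fewer cells expressed a marker or each cell held less of its RNA.

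In A549, where each group is 1 array, the planned fit took the cDNA and the hairpin as additive over the 8 arrays. It called 8 of the 30 genes with S2sh7, 6 lower and 2 higher, where 21.1% of all genes were called, 12.0% higher and 9.06% lower (limma, adjusted p under 0.05). The calls rest on few arrays: leaving out 1 S2sh7 and shLuc pair gave 1 call without the GFP pair, 3 without the WT pair, 4 without the BRD pair and 0 without the ATPdead pair. COL3A1 had the largest change.

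COL3A1 encodes the single chain of collagen III, a fibrillar collagen of soft tissues. It read log2 6.58 with WT SMARCA4, 6.40 with BRD, 7.47 with ATPdead and 7.37 with GFP on the S2sh7 arrays of A549, against 4.25, 3.63, 4.56 and 4.13 on the shLuc arrays in the same order of cDNAs. All 4 S2sh7 arrays lay above all 4 shLuc arrays. The log2 fold change was 2.81 (SE 0.147, limma, adjusted p = 0.00634). The gene passed the filter only through these 4 S2sh7 arrays, so a tested COL3A1 had to differ, and its shLuc levels are under log2 5, where the size of a fold is uncertain. In H1299 it read log2 2.40 to 2.91 on all 24 arrays. A further COL3A1 probe set, an x_at, rose by 2.60 with GFP or ATPdead and by 1.49 with WT or BRD (limma, adjusted p = 3.70e-06 and 0.000593). That probe set also passed the filter only through the S2sh7 arrays of A549, at log2 5.26 to 6.69 against 3.83 to 4.28 with shLuc. It too had to differ once tested. The other 3 COL3A1 probe sets were too dim to be tested. COL3A1's partner in many fibres, COL1A2, read log2 5.19 to 5.49 with S2sh7 and 5.23 to 5.50 with shLuc and was not called. COL1A1 gave -0.01 in its brightest probe set (limma, adjusted p = 0.883), while its probe set that is brightest in A549 rose by 0.61 and another rose by 0.45 (adjusted p = 0.0198 and 0.0482).

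The other additive calls were COL4A6 (-1.64), COL18A1 (-1.43), COL27A1 (-0.66), COL4A5 (-0.48), COL16A1 (-0.43) and COL20A1 (-0.40), which fell, and COL26A1 (0.32), which rose (limma, adjusted p between 0.0127 and 0.0488). COL16A1 was over log2 5 on all 4 shLuc arrays and on 1 S2sh7 array of A549 and on none of H1299, so it entered the test mainly through the group where it is high. For COL4A5 the S2sh7 and shLuc arrays overlapped, at log2 8.21 to 8.89 with S2sh7 and 8.88 to 9.14 with shLuc. The SMARCA4 cDNAs with a working ATPase (WT and BRD) against ATPdead and GFP gave no call in the additive fit, among the collagen genes (5 at an unadjusted p under 0.05, limma) or among all genes (1714 at an unadjusted p under 0.05).

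For some collagen genes, such as COL4A2, the pairs of A549 arrays differed among themselves in a way that follows the ATPase of the added SMARCA4. For others, such as COL16A1 and COL20A1, they did not. With the first kind of gene in view, a second fit was chosen after the data were seen. It takes WT and BRD as 2 arrays of SMARCA4 with a working ATPase and ATPdead and GFP as 2 arrays without it, for each hairpin. Its error is the difference between arrays that carry different cDNAs, so its p-values lean on that pairing, and the genes described from it were picked with their values known. A SMARCA4 probe set other than its brightest differed among the A549 arrays. With S2sh7 its log2 level was 7.88 for WT, 7.91 for BRD, 7.24 for ATPdead and 4.97 for GFP. With shLuc the level was 6.64 for WT, 6.91 for BRD, 6.85 for ATPdead and 4.56 for GFP. The part of this level in the second fit was not tested.

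Without a working SMARCA4, S2sh7 changed 16 of the 30 collagen genes, 11 lower and 5 higher (limma, adjusted p under 0.05). In the same comparison 49.8% of all genes were called, 27.0% higher and 22.9% lower, so 53.3% of the collagen genes is near the background. Of 5 basement membrane genes tested, 4 fell and none rose, and of 9 fibrillar genes, 3 rose and 2 fell. These counts rest on the brightest probe sets. The fibrillar genes that rose were COL3A1, COL5A2 and COL5A3. COL3A1 passed the filter only through S2sh7 arrays of A549, so it had to differ once tested. The COL5A3 call was lost in 5 of 15 settings, and the other probe set of that gene gave -0.03. A COL4A3 probe set other than its brightest rose by 0.50, and such a COL1A1 probe set rose by 0.63 (limma, adjusted p = 0.0244 and 0.0280). The other tested COL1A1 probe sets gave 0.02, 0.53 and -0.14 and were not called. The difference between classes was not tested. The anchoring fibril gene COL7A1 and the multiplexin COL18A1 fell. With a working SMARCA4, 7 genes were called, 5 lower and 2 higher, where 21.3% of all genes were called, 12.1% higher and 9.28% lower. Without the shLuc BRD array it was 4 genes.

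Among the basement membrane chains, COL4A2 read log2 10.24 with WT, 10.04 with BRD, 8.65 with ATPdead and 8.47 with GFP on the S2sh7 arrays, against 10.32, 10.30, 10.35 and 10.49 on the shLuc arrays. The ATPdead and GFP arrays with S2sh7 stood apart below the other 6. With S2sh7, COL4A2 fell by 1.86 (SE 0.0932) without a working SMARCA4 (limma, adjusted p = 3.16e-06), and it gave -0.17 (adjusted p = 0.228) with it. COL4A1, its head-to-head neighbour, read 7.90, 7.54, 6.63 and 6.54 with S2sh7, against 7.75, 7.82, 7.88 and 7.88 with shLuc, in the same order of cDNAs. Again the ATPdead and GFP arrays with S2sh7 were the lowest, and the fold change without a working SMARCA4 was -1.30 (SE 0.108; limma, adjusted p = 3.74e-05). A further probe set of each gene fell too, by 1.39 for COL4A2 and by 1.55 for COL4A1.

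COL4A6 and COL4A5, the head-to-head pair on chromosome X, also fell with S2sh7. COL4A6 read log2 8.68, 8.13, 7.27 and 7.43 with S2sh7 (WT, BRD, ATPdead and GFP), against 9.68, 9.75, 9.25 and 9.41 with shLuc. Every S2sh7 array was below every shLuc array. Its fold change was -1.98 without and -1.31 with a working SMARCA4 (limma, adjusted p = 3.00e-05 and 0.00152), and the difference of 0.67 did not pass the test (adjusted p = 0.0678). COL4A5 fell by 0.70 without a working SMARCA4 (limma, adjusted p = 0.000294) and gave -0.27 with it (adjusted p = 0.0631). COL4A4, of the third pair, read log2 7.16 to 7.71 on all 8 arrays and gave -0.06 (95% interval -0.37 to 0.25) without a working SMARCA4.

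COL18A1 and COL7A1, like COL4A2, were lowest under S2sh7 with ATPdead and GFP, but COL18A1 also fell with a working SMARCA4. COL18A1 read log2 7.84, 7.76, 6.24 and 6.09 with S2sh7 (WT, BRD, ATPdead and GFP), against 8.51, 8.43, 8.39 and 8.30 with shLuc. It fell by 2.18 (SE 0.0745) without and by 0.67 (SE 0.0745) with a working SMARCA4 (limma, adjusted p = 6.25e-07 and 0.00110). COL7A1 read 7.81, 7.80, 6.53 and 6.72 with S2sh7, against 8.04, 8.01, 8.25 and 8.07 with shLuc. It fell by 1.54 without a working SMARCA4 (limma, adjusted p = 4.64e-06) and gave -0.22 with it (adjusted p = 0.105). In both genes the 2 lowest arrays were S2sh7 with ATPdead and with GFP.

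The fibrillar chains split. COL5A1, the main chain of collagen V, read log2 7.45, 6.60, 5.03 and 5.79 with S2sh7 (WT, BRD, ATPdead and GFP), against 7.55, 7.62, 7.41 and 7.61 with shLuc. The BRD array with S2sh7 lay between the WT array and the other 2. COL5A1 fell by 2.10 (SE 0.298) without a working SMARCA4 (limma, adjusted p = 0.000625), while its partner chain COL5A2 rose by 0.38 (SE 0.0759, adjusted p = 0.00364). COL5A2 read 10.72, 10.63, 11.30 and 11.10 with S2sh7, against 10.86, 10.86, 10.81 and 10.83 with shLuc. COL3A1 rose by 3.07 without and by 2.55 with a working SMARCA4, and COL27A1 fell by 0.97 without and by 0.36 with it (limma, adjusted p between 1.15e-05 and 0.0184). The rise of COL3A1 was favoured by the filter, which it passed only through S2sh7 arrays.

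The fibril-associated COL12A1 rose in A549 where it fell in H1299. It read log2 6.11, 5.96, 7.30 and 7.59 with S2sh7 (WT, BRD, ATPdead and GFP), against 5.61, 5.62, 5.30 and 5.79 with shLuc. All S2sh7 arrays were above all shLuc arrays, and ATPdead and GFP stood highest. The rise was 1.90 (SE 0.156) without a working SMARCA4 (limma, adjusted p = 3.53e-05), and the value with it was 0.42 (adjusted p = 0.0988). A further probe set rose by 2.05 in A549 and fell by 1.06 in H1299 with GFP, and another tested one gave 0.28 in A549 and 0.02 in H1299. The difference between the lines was not tested, because the line is also the batch.

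**Figure D4:**
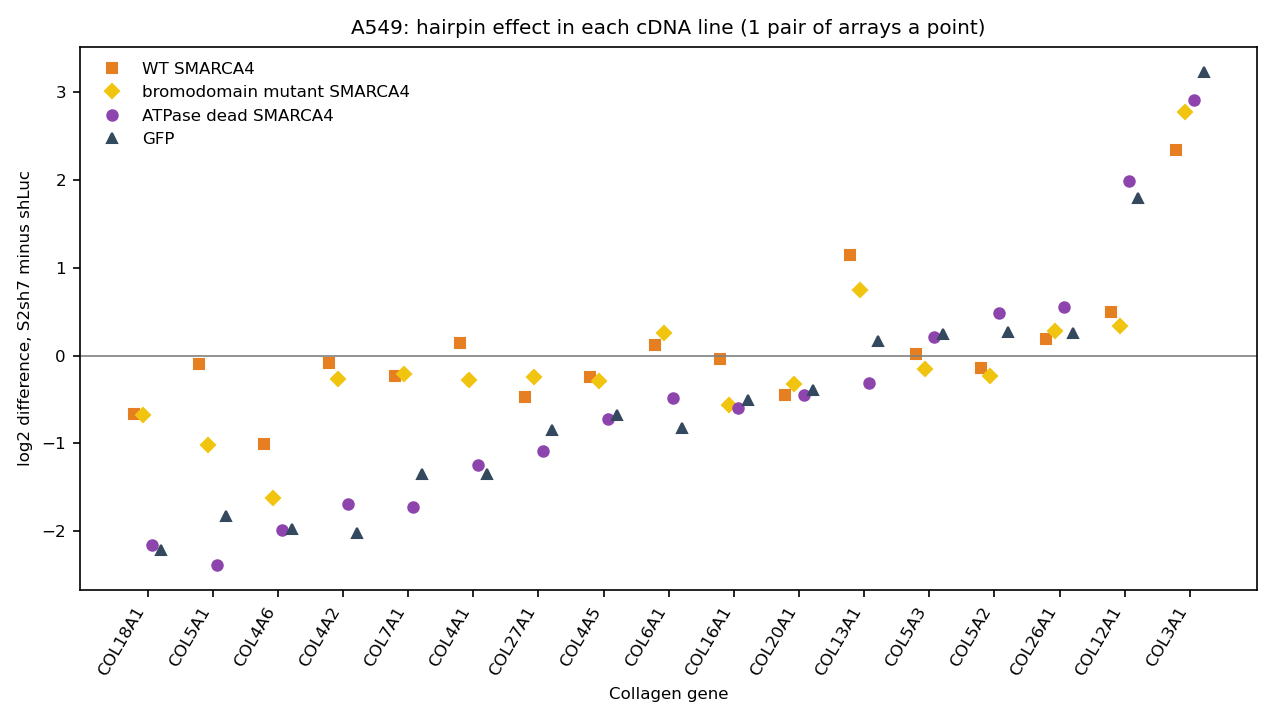
Log2 difference of the S2sh7 array minus the shLuc array in A549 (vertical axis) for 17 collagen genes (horizontal axis), with 1 point for each cDNA. For COL18A1, COL4A2, COL7A1 and COL4A1 the ATPdead and GFP pairs lie below the WT and BRD pairs, and for COL12A1 they lie above.

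The difference of the hairpin effect between A549 with and without a working SMARCA4 was called for 11 of the 30 genes, 9 positive and 2 negative, where 23.9% of all genes were called, 12.0% higher and 11.9% lower. It was 1.68 for COL4A2, 1.54 for COL5A1, 1.51 for COL18A1, 1.32 for COL7A1 and 1.23 for COL4A1, and it was -1.48 for COL12A1 and -0.57 for COL5A2 (limma, adjusted p between 0.000133 and 0.0329). COL6A1 (0.84), COL27A1 (0.61) and COL4A5 (0.43) were also called. The calls of COL5A1 and COL4A5 were lost in 7 and 8 of 15 settings. COL13A1 was called at 1.03 in its brightest probe set alone, with values under log2 5 throughout: 4.12 with WT, 3.99 with BRD, 3.07 with ATPdead and 3.19 with GFP under S2sh7, against 2.97, 3.24, 3.38 and 3.03 under shLuc. The other 2 COL13A1 probe sets, which averaged log2 6.23 and 5.94 in A549, gave -0.19 and -0.00, and with its probe sets averaged COL13A1 gave 0.28 and was not called. For COL27A1, 2 of the 4 other probe sets gave -0.15 and -0.02. COL3A1 gave -0.52 (95% interval -1.18 to 0.15) and COL20A1 0.03 (-0.23 to 0.30), and neither was called.

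Compared within a hairpin, a working SMARCA4 went with 15 called genes under S2sh7, 11 higher and 4 lower than with ATPdead or GFP, where 38.7% of all genes were called, 17.8% higher and 20.9% lower. Under shLuc the same contrast called none of the 30 (1 at an unadjusted p under 0.05, limma) and none of all genes (746 at an unadjusted p under 0.05). These contrasts use the same arrays as the hairpin comparisons above. Under S2sh7, COL21A1, which was not tested, read log2 5.09 with WT and 5.01 with BRD, and 3.97 with ATPdead and 3.99 with GFP, against 4.47 to 4.58 under shLuc. It was picked after its values were seen.

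Markers also moved in A549. The summed intensity of the 8 fibroblast markers was 733 to 792 with S2sh7 and 682 to 802 with shLuc, and these ranges overlap. That of the 6 epithelial markers was 19503 to 20147 with S2sh7 and 28061 to 31963 with shLuc, and without a working SMARCA4 CDH1 fell by 1.77, EPCAM by 1.36, KRT19 by 2.28 and KRT8 by 1.54 (limma, adjusted p under 0.05). Of 3 leukocyte markers, CD14 fell by 1.54 there, CD3E did not pass the test, and PTPRC stayed between log2 3.57 and 3.94 with S2sh7 and 3.68 and 3.79 with shLuc. The part of these moves in the collagen results was not tested.

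Set side by side, the lists of the 2 lines shared some chains. Of the 8 collagen genes lower in H1299 with GFP, 4 (50%) were also among the 11 lower in A549 without a working SMARCA4, which is 36.4% of those 11. Over all genes, 731 were lower in both, which is 31% of the 2360 lower in H1299 and 21.8% of the 3360 lower in A549, and with so few collagen genes nothing is read from the gap. The 4 shared collagen genes were COL18A1, COL27A1, COL6A1 and COL16A1. COL16A1 was under log2 5 on all H1299 arrays and entered the test mainly through the shLuc arrays of A549. In A549 without a working SMARCA4, COL6A1 gave -0.65 in its brightest probe set. Its other tested probe sets gave -0.18, -0.15, -0.03 and 0.03 there, and only the first was called. COL12A1 was lower in H1299 and higher in A549, and COL13A1, COL6A2 and COL9A3 were not called in A549 without a working SMARCA4. In A549 with a working SMARCA4, COL13A1 rose by 0.95 in its brightest probe set (limma, adjusted p = 0.00277), at levels under log2 5. COL6A2 gave 0.33 (95% interval 0.04 to 0.63, limma, adjusted p = 0.0607) in A549. COL4A1, COL4A2, COL4A6 and COL5A1, which fell in A549, were under log2 5 on all H1299 arrays.

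**Figure D5:**
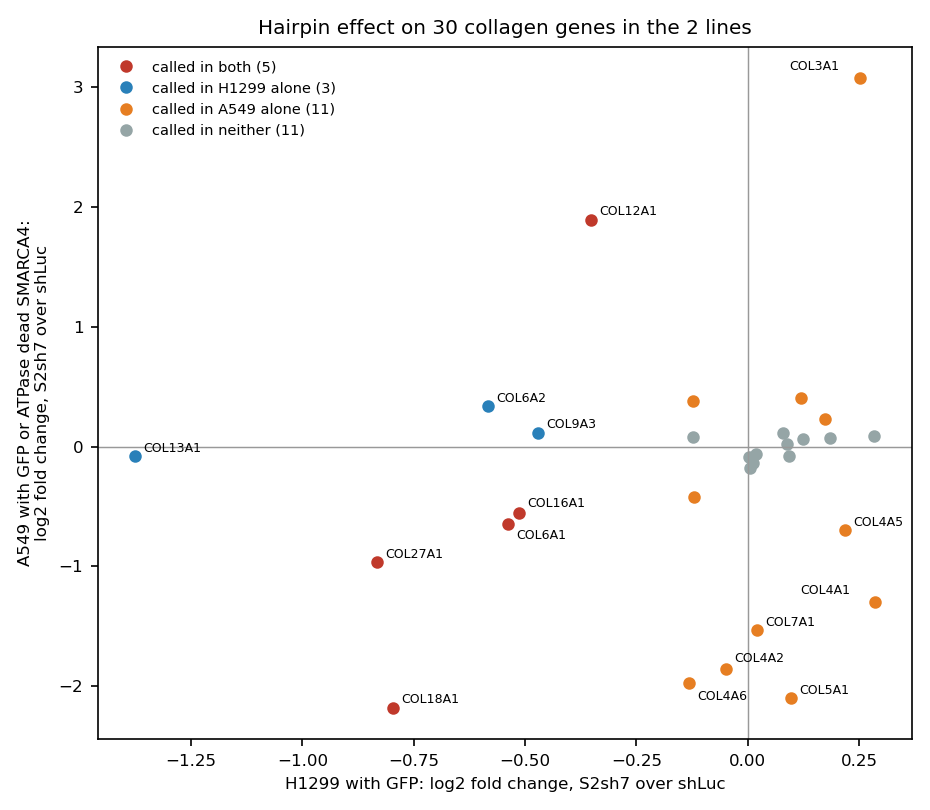
Log2 fold change of S2sh7 over shLuc for 30 collagen genes in H1299 with GFP (horizontal axis) and in A549 with GFP or ATPdead SMARCA4 (vertical axis), coloured by where the gene was called. COL18A1, COL27A1, COL6A1 and COL16A1 lie at the lower left, COL13A1 is low on the H1299 axis and near 0 on the A549 axis, and COL3A1 and COL12A1 are at the top.

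The machinery around the chains was read from 3 lists. Of 28 tested genes of collagen synthesis and processing, 8 rose and 6 fell with S2sh7 in H1299 with GFP, 3 rose and 4 fell in the additive A549 fit, and 6 rose and 11 fell in A549 without a working SMARCA4. In H1299, TFG, a protein of the secretory exit sites that large procollagens pass, rose by 0.31, and KLHL12, an adaptor that enlarges COPII coats, rose by 0.23. The prolyl hydroxylase genes P3H1 and P4HA2 fell by 0.23 and by 0.30 (limma, adjusted p between 1.15e-07 and 0.000245). In A549, the prolyl 4-hydroxylase subunit gene P4HA3 fell by 1.60, and SERPINH1, the collagen chaperone HSP47, rose by 0.58 (limma, adjusted p = 0.0109 and 0.0134). Without a working SMARCA4, BMP1, which trims procollagen C-propeptides, fell by 0.80, P4HB, a prolyl 4-hydroxylase subunit, fell by 0.63, and P3H2 rose by 1.58 (limma, adjusted p under 0.05).

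Of 17 tested genes of cross-linking, receptors and degradation, 3 rose and 3 fell in H1299 with GFP, 1 rose and 2 fell in the additive A549 fit, and 5 rose and 4 fell in A549 without a working SMARCA4. The lysyl oxidases, which cross-link collagen, went apart in H1299: LOX rose by 1.37, LOXL2 fell by 1.16 and LOXL1 fell by 0.46 (limma, adjusted p between 8.49e-14 and 1.45e-08). LOXL2 also fell in A549, by 1.09 (limma, adjusted p = 0.0133). MMP1, a collagenase, rose by 0.72 in H1299 (limma, adjusted p = 4.77e-07). ITGA2, a subunit of a collagen-binding integrin, rose by 1.53 in A549 without a working SMARCA4, and MRC2, a collagen uptake receptor, fell by 0.58 (limma, adjusted p under 0.05).

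Of 12 tested TGF-beta genes, a pathway that drives transcription of many collagens, 2 rose and 5 fell in H1299 with GFP, none rose and 4 fell in the additive A549 fit, and 2 rose and 5 fell in A549 without a working SMARCA4. SMAD7, an inhibitor of the pathway, fell by 0.86 in H1299 and by 0.78 in A549 (limma, adjusted p = 2.21e-07 and 0.0125). The receptor gene TGFBR1 fell by 0.28 in H1299 and by 1.04 in A549, and TGFBR2 fell by 1.02 in A549 (limma, adjusted p = 0.000120, 0.00839 and 0.0295). CCN2, a target of the pathway, rose by 1.16 in A549 without a working SMARCA4 (limma, adjusted p under 0.05). The shares called in these lists read against the same backgrounds as above, 29.7% in H1299 with GFP, 21.1% in the additive A549 fit and 49.8% in A549 without a working SMARCA4.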

How the data were processed

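RNA was read on Affymetrix HG-U133 Plus 2.0 arrays in 32 samples (24 of H1299, 8 of A549), after labelling with a 3' in vitro transcription kit, per the labels' protocols. The deposited values are 1 intensity per probe set on a linear scale, and RMA and limma are named, per the submitters' processing notes (no version is stated). The design had assumed log2 values, so log2 of the deposited intensity was taken with no pseudocount. Of 54675 probe sets, 41097 carried 1 symbol, 1801 carried several and 11777 carried none, by the platform's annotation, and only the first kind was used. Each gene was read through its brightest probe set by the mean over all arrays, and the 14695 genes over log2 5 in 3 or more arrays were tested.

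Each line was fitted alone in limma 3.58.1 (R 4.3.3, with the package data.table, version 1.17.8) with default eBayes and Benjamini-Hochberg adjustment over all tested genes. H1299 had 1 mean per group (16 residual degrees of freedom). A549 had additive cDNA and hairpin terms (3), and, chosen after the data were seen, 4 means (4). Genes were called at adjusted p under 0.05. The fit was tested on simulated data. The precision is limited by the number of arrays. The collagen genes and the other lists were chosen with earlier results of these data known. Named genes are the 8 collagen genes with the largest called change in any H1299 knockdown, the 6 largest in A549, up to 4 in each other planned comparison, and up to 4 with the smallest adjusted p per list. Collagen and list genes described from the 4-mean fit were chosen after their values were seen. Alternatives tried were averages over a gene's probe sets, each single probe set, other filters and normalizations, eBayes settings, a replicate block, only the groups compared, and left-out arrays. Figures were drawn with Python 3.11.15, pandas 2.3.3 and matplotlib 3.10.9.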

Additional observations from a re-analysis of the deposited data

Results flagged for a closer look

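In 15 cases the hairpin effect on a collagen gene differed between cDNA backgrounds by a test of the difference itself (limma, Benjamini-Hochberg adjusted p under 0.05 over all genes). A positive value means that S2sh7 minus shLuc was higher in the background named first. In H1299, WT SMARCA2 minus GFP gave 0.51 for COL13A1, 0.39 for COL18A1 and 0.26 for COL6A1, and BRD SMARCA2 minus GFP gave 0.49 for COL13A1. The other 2 COL13A1 probe sets gave -0.14 and -0.03 with WT and -0.09 and -0.00 with BRD, and with its probe sets averaged the gene gave 0.11 and 0.13 and was not called.

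In A549, WT or BRD SMARCA4 minus ATPdead or GFP gave positive differences for 9 genes. These were 1.68 for COL4A2, 1.54 for COL5A1, 1.51 for COL18A1, 1.32 for COL7A1, 1.23 for COL4A1, 1.03 for COL13A1, 0.84 for COL6A1, 0.61 for COL27A1 and 0.43 for COL4A5. For COL13A1 the other 2 probe sets gave -0.19 and -0.00. The differences were -1.48 for COL12A1 and -0.57 for COL5A2. The A549 values come from the 4-mean fit that was chosen after the data were seen, in which arrays of different cDNAs serve as each other's replicates.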

How the results depend on the processing

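Counts of collagen genes called moved by over 1.5 times in the following cases, and the cause was not tested. With a gene's probe sets averaged, the difference between WT SMARCA2 and GFP in H1299 gave 1 call (3 as reported), that between BRD and GFP gave 0 (1), BRD against GFP under shLuc gave 2 (1), and S2sh7 in the additive A549 fit gave 4 (8). BRD against GFP under shLuc also gave 2 calls after repeated quantile normalization and with trend and robust eBayes, and 0 with arrays centred on their medians. With only the groups compared in the fit, which has fewer samples, BRD against GFP under shLuc gave 0, the difference between BRD and GFP gave 0, and ATPdead against WT under S2sh7 gave 0 (2 as reported).

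Leaving out 1 array, the counts were 8 to 9 for S2sh7 in H1299 with GFP, 6 to 8 with WT, 8 to 10 with BRD and 8 to 9 with ATPdead. They were 0 to 1 for BRD against GFP under shLuc. In A549 they were 0 to 4 for the additive fit (leaving out 1 pair), 14 to 16 without a working SMARCA4, 4 to 7 with it, and 9 to 13 for the difference.

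Single probe sets gave the other sign in 29 of 153 cases over all comparisons with a call. For the effect of S2sh7 in H1299, a COL12A1 probe set gave 0.0240 with GFP and 0.0138 with BRD. A COL27A1 probe set gave 0.0737 with ATPdead and 0.0748 with WT, and another gave 0.0648 with ATPdead and 0.0141 with WT. A COL5A1 probe set gave -0.0809 with BRD and -0.0010 with WT, and another gave -0.00076 with WT. A COL6A1 probe set gave 0.0481 with WT. In A549 without a working SMARCA4, COL27A1 gave 0.0128, COL5A3 -0.0274 and COL6A1 0.0303, each in 1 probe set. With it, COL13A1 gave -0.0018, and in the additive fit COL26A1 gave -0.0252. For the differences in H1299, COL13A1 gave -0.140 and -0.0297 with WT and -0.0922 and -0.0049 with BRD, and COL6A1 gave -0.0623 and -0.102 with WT. For the difference in A549, COL13A1 gave -0.191 and -0.0021, COL27A1 -0.145 and -0.0224, and COL6A1 -0.0090. For a working SMARCA4 under S2sh7, COL13A1 gave -0.0321 and -0.0632 and COL27A1 -0.198. Of the other single probe sets, 70 kept the sign and the call and 54 kept the sign alone.

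Over all genes called in H1299 with GFP, 1999 were higher and 2360 lower as deposited, 1531 and 2462 with centred arrays, and 2547 and 2100 after repeated quantile normalization. For the difference between WT SMARCA2 and GFP, 268 genes were higher and 67 lower as deposited, 274 and 34 centred, and 218 and 106 after quantile normalization. The collagen genes were 0 higher and 8 lower in the knockdown and 3 higher and 0 lower in the difference under each. Replicate numbers did not pair the H1299 arrays (same-number correlations of deviations had a median of -0.007 and ran from -0.285 to 0.281, and 9 of 24 arrays correlated best with their own number). With the replicate number as a block, the H1299 knockdowns kept 8 calls with GFP, 8 with WT, 9 with BRD and 8 with ATPdead, and all 40 single-gene calls stayed.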
